A study of Mus musculus with 6 samples.

Results

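FXR binding at the basolateral bile acid efflux transporters Slc51a, Slc51b, Abcc3 and Abcc4 was examined by ChIP-seq in male mouse liver. The peaks were those whose nearest gene, as assigned by the authors, was 1 of these 4 genes. They numbered 11 of 20040 peaks in control liver and 6 of 12495 peaks in liver lacking hepatocyte BCL6. The controls carried floxed Bcl6 alleles (Bcl6 fl/fl, C57BL/6) and are written WT. The knockouts carried the same alleles with albumin-Cre (Alb-cre, Bcl6 fl/fl) and are written LKO, so both genotypes share the floxed alleles and only LKO carries Cre. Albumin-Cre acts in hepatocytes, and the other cells of the liver keep Bcl6. No drug or diet treatment was given in the labels, and ages are not given in the sources used here. Each genotype had 2 FXR ChIP libraries, made with antibody E4B8P, and 1 input library of chromatin that was not immunoprecipitated.

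Hepatocytes take up bile acids from portal blood and secrete them into bile across the canalicular membrane. A second set of transporters in the basolateral membrane can return bile acids to the blood, a route that limits bile acid load when bile flow is impaired. SLC51A and SLC51B (OSTα and OSTβ) form a heterodimer that moves bile acids by facilitated diffusion, while ABCC3 and ABCC4 (MRP3 and MRP4) are ATP-driven exporters. FXR is the nuclear receptor for bile acids, binds DNA mainly with RXR, and is known to induce the genes of the OST pair. BCL6 is a transcriptional repressor.

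The libraries differed in depth. WT replicate 2 held 2883717 tags, against 19022618 to 22637613 in the other ChIP libraries, and the inputs held 6935001 and 6964271. The median peak was estimated at 9.0 tags in WT replicate 2 and at 34.1 to 40.1 tags in the others. The authors called peaks on the pooled libraries of a genotype, so the lists carry no replicate spread, and the contribution of the shallow library to each list was not tested. The 2 tables were normalized separately and no test was made between genotypes. With 2 libraries against 2, an exact permutation test cannot give a p below 0.333. Nothing in the labels says whether the replicates came from separate mice, and binding data do not measure the loss of Bcl6 itself.

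The 4 genes lie on the minus strand of 4 chromosomes, and the sequences that follow are given on the gene strand, 5′ to 3′, from GRCm38.p6, whose coordinates are those of mm10. They are shown because they are the strongest WT peak of each gene, the second Abcc4 peak that both genotypes had, and the only match to the FXR motif among the peaks. FXR with RXR prefers an inverted repeat of the half-site AGGTCA with its reverse complement TGACCT after a 1-base spacer (IR1). Capitals mark an IR1-like element or an exact half-site in either direction. The Slc51b peak is chr9:65422849-65423059, the Slc51a peak chr16:32484362-32484572, the upstream part of the Abcc3 promoter peak chr11:94393018-94393136, the Abcc4 intron peak chr14:118667515-118667725 and the Abcc4 upstream peak chr14:118714398-118714608. The short element is chr16:32472731-32472743, within the peak past the end of Slc51a.
Slc51b promoter peak: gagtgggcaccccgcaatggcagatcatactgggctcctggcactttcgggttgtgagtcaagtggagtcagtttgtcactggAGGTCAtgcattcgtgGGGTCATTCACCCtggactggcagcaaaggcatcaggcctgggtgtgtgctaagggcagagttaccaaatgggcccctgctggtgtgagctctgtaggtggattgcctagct
Slc51a intron peak: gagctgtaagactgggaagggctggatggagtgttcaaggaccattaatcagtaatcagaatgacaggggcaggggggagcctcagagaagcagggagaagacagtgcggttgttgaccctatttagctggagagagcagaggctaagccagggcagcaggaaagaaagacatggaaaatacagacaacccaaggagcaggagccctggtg
Abcc3 promoter peak, upstream part: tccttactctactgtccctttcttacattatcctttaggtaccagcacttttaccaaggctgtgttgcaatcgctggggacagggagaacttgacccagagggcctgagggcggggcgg
Abcc4 intron peak: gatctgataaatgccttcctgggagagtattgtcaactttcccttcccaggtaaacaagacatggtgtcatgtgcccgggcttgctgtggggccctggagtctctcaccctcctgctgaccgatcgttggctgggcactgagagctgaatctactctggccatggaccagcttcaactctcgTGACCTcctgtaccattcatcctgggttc
Abcc4 upstream peak: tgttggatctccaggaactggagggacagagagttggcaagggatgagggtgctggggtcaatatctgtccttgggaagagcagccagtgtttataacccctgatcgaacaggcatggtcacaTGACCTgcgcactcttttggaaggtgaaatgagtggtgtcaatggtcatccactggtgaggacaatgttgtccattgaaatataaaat
Slc51a gene-end element: AGGGCATGGACCT

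FXR peaks were found at all 4 genes in WT and at 3 of the 4 in LKO. Slc51a had 2 WT peaks and 1 LKO peak, Slc51b had 1 in each genotype, Abcc3 had 5 WT peaks and none in LKO, and Abcc4 had 3 WT and 4 LKO peaks. Peaks that overlapped by at least 1 bp were called shared. Of the 11 WT peaks, 4 were overlapped by an LKO peak, or 36.4% (95% Wilson interval 15.2 to 64.6%), and over all WT peaks the share was 49.5%. Of the 6 LKO peaks, 4 were overlapped by a WT peak, or 66.7% (30.0 to 90.3%), and over all LKO peaks it was 79.4%. Both intervals, which cover counting error only, include the share of the whole list. The shared peaks comprised 1 at Slc51a, 1 at Slc51b and 2 at Abcc4, and the 2 lists together marked 13 distinct sites at the 4 genes. Requiring a reciprocal overlap of 50%, or centres within 100 bp, or allowing a gap of up to 500 bp, gave the same 4 pairs of peaks.

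**Figure D1:**
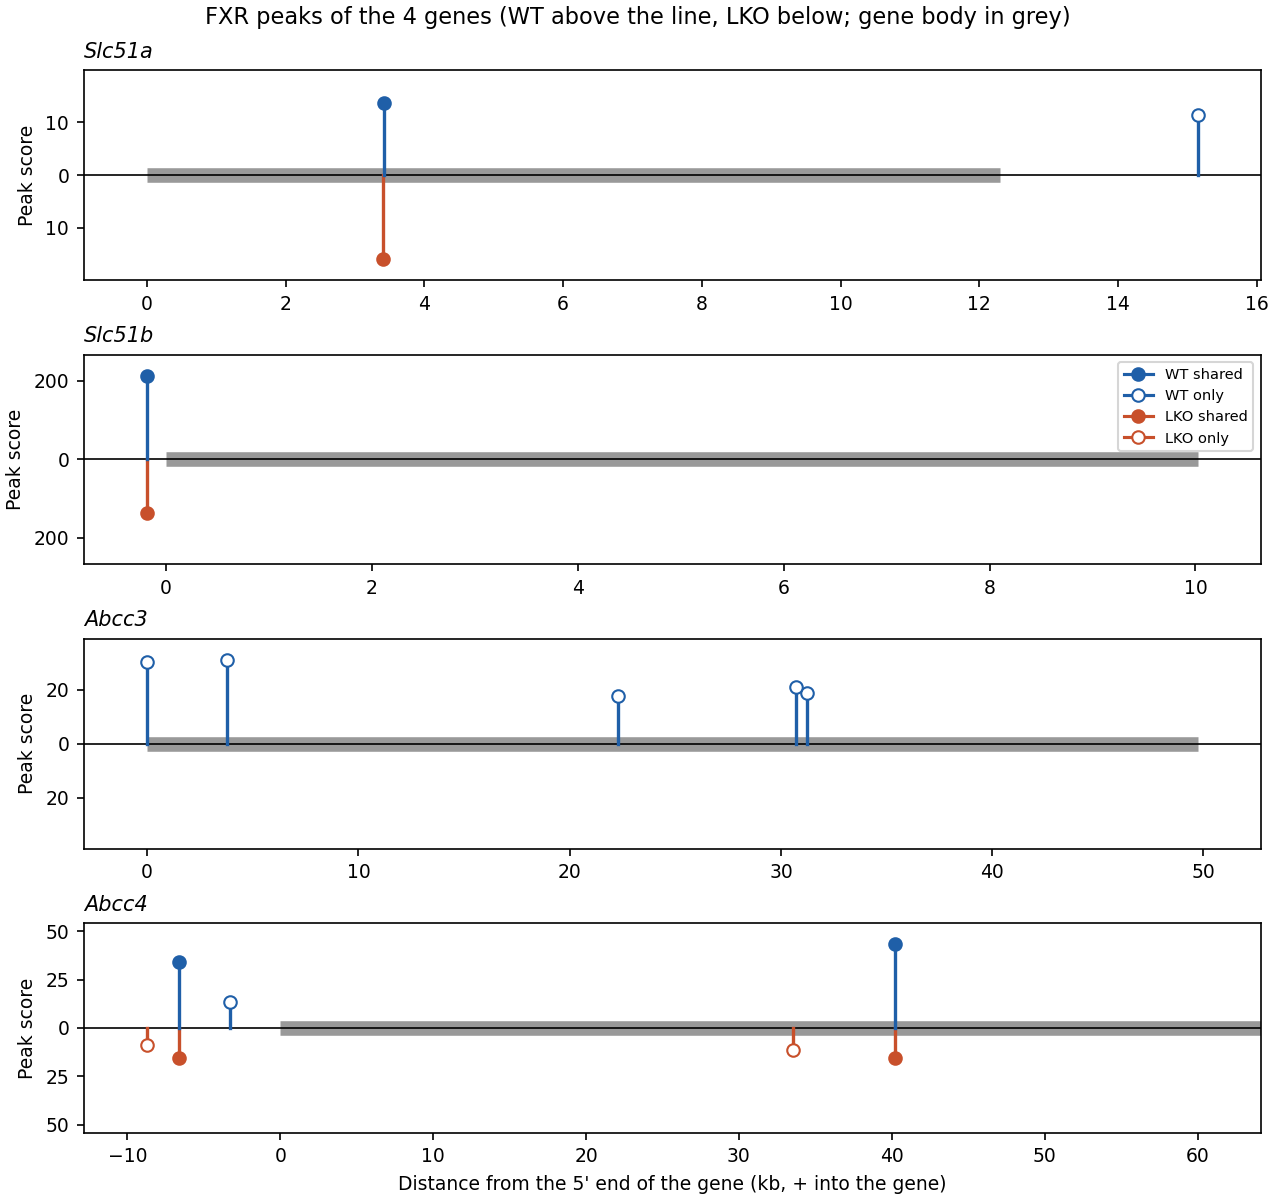
Peaks of each gene against the distance of the peak centre from the 5′ end of the gene in kb, with the deposited peak score (pooled ChIP tags per 10000000) drawn upwards for WT and downwards for LKO on a scale set for each gene. Filled points are shared peaks, open points were found in 1 genotype only, and the gene body is grey (Abcc4 continues beyond the panel). The 5 Abcc3 peaks have no LKO counterpart, and the Slc51b peak, at 213.6 in WT and 137.1 in LKO, is the strongest of the peaks.

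The strongest FXR peak of the group lay at the promoter of Slc51b, which encodes the β subunit of the OST transporter. The gene occupies chr9:65412753-65422773, and the WT peak was centred 181 bp and the LKO peak 183 bp upstream of its start. The peak score, which is the number of pooled ChIP tags per 10000000, was 213.6 in WT and 137.1 in LKO. The peak stood at the 98.9 percentile of strength in the WT list (rank 231) and at the 99.0 percentile in the LKO list (rank 124). It was therefore among the stronger FXR sites of the liver in both genotypes. Strength was the mean log2 value of the 2 ChIP libraries, and peaks within a list have equal length.

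At this Slc51b promoter peak, the estimated tags were 357 and 84.5 in the WT ChIP libraries and 309 and 286 in the LKO ChIP libraries, while the inputs held an estimated 1.70 tags in WT and 1.45 in LKO. The 4 ChIP libraries thus stood far above both inputs, although ChIP above input was a condition for keeping any peak. Scaled to 10000000 library tags, the estimates were 188 and 293 in WT and 145 and 126 in LKO, so both LKO libraries were below both WT libraries on this scale. After subtracting the median of each library over the 9918 shared peaks (the relative scale), the log2 level was 2.48 and 2.61 in WT and 2.90 in each LKO library, and both LKO libraries were then above both WT libraries. The direction of the difference therefore depended on the scale, with a log2 difference (LKO minus WT) of -0.79 on the library-total scale and 0.35 on the relative scale. The library-total scale carried a median difference of -1.12 over all shared peaks, against 0.026 on the relative scale. Shared peaks in the same decile of the WT list had relative differences from -0.96 to 0.53 between the 5th and 95th percentiles, a range that holds the Slc51b value. The ratio of peak scores, 0.642, lay at the 75.6 percentile of the ratios of all shared peaks, whose median was 0.507.

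Slc51a encodes the α subunit of the same transporter, and its FXR peaks were weak. The gene occupies chr16:32475578-32487879, with the shared peak in intron 2 of 8, centred 3412 bp inside the gene in WT and 3408 bp in LKO. The peak score was 13.7 in WT and 15.9 in LKO. It alone of the 4 shared peaks here had a higher score in LKO than in WT, which held for 4.25% of all shared peaks but for 25.7% (78 of 303) of those in its decile of WT strength. Estimated tags were 21.6 and 4.21 in the WT libraries and 25.7 and 42.1 in the LKO libraries. The value of WT replicate 2 thus rests on few tags. The input estimate was 1.26 tags in LKO, the second highest of the LKO peaks of these genes.

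The intron peak of Slc51a had relative log2 levels of -1.57 and -1.72 in WT and of -0.69 and 0.13 in LKO. Both LKO libraries lay above both WT libraries, and the means differed by 1.36 with a pooled SD of 0.42. The difference stood at the 97.5 percentile of all shared peaks. Peaks that were weak in WT generally had positive differences, however. Among the 303 shared peaks in the same decile of the WT list by strength, the median difference was 0.86 and the values ran from 0.35 to 1.80 between the 5th and 95th percentiles. The value at Slc51a was within that range. On the library-total scale the difference was 0.22.

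A second WT peak assigned to Slc51a lay 15146 bp from its start, beyond the end of the gene, at chr16:32472628-32472838. The authors' annotation placed it in the 3′ untranslated region of the neighbouring gene Pcyt1a, which encodes an enzyme of phosphatidylcholine synthesis. It held an estimated 18.6 and 3.32 tags in the WT libraries and had a score of 11.4, at the 4.85 percentile of the WT list. It was the weakest of the 11 WT peaks, and the nearest LKO peak was 11738 bp away. In the weakest decile of WT peaks, 11.2% were overlapped by an LKO peak.

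Abcc3, which encodes the exporter MRP3, had 5 FXR peaks in WT and none in LKO. The gene occupies chr11:94343295-94393017, and its peaks lay at the promoter (chr11:94392926-94393136), in intron 1 (chr11:94389145-94389355), in intron 8 (chr11:94370633-94370843), in intron 17 (chr11:94362221-94362431) and in exon 18 of 31 (chr11:94361676-94361886). Of the 901 genes with at least 5 WT peaks, 15 had no LKO peak, or 1.66%, and Abcc3 was 1 of them. This share was not matched for strength, and no peak assigned to Abcc3 was above the 68.7 percentile of the WT list. The lowest score in the LKO list was 8.88, and the median ratio of LKO to WT score over all shared peaks was 0.507. This ratio covers only peaks called in both genotypes, so it does not give the score of a peak not called in LKO. The median gene with a peak had 1 peak. A 6th WT peak inside the gene, in the list under the neighbouring gene Ankrd40, also had no LKO overlap, so that the gene body held 6 WT peaks and no LKO peak.

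The Abcc3 promoter peak had a score of 30.1 and stood at the 68.7 percentile of the WT list, the highest of the 5. It held an estimated 47.6 and 15.3 tags in the WT ChIP libraries, and its nearest LKO peak was 64614 bp away. In the same decile of the WT list, 63.2% of peaks were overlapped by an LKO peak. The intron 1 peak had a score of 31.0 with 54.4 and 7.43 estimated tags, at the 54.5 percentile. These peaks near the start of the gene were of middle strength in WT.

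The 3 peaks further into Abcc3 were weaker by score. The scores were 17.8 in intron 8, 21 in intron 17 and 18.7 in exon 18. The intron 8 peak held 24.0 and 12.2 estimated tags in the WT libraries, or 12.6 and 42.3 per 10000000 library tags, so the shallow replicate stood well above the deep one. The intron 17 peak showed the same order, with 17.8 and 36.7 per 10000000, and lay in an L1MB2 LINE repeat. The exon 18 peak was alike in both libraries, at 16.2 and 18.1 per 10000000. Over all WT peaks, however, replicate 2 stood above replicate 1 by a median log2 difference of 0.57 on this scale. On the relative scale, replicate 2 minus replicate 1 was 1.23 in intron 8, 0.52 in intron 17 and -0.36 in exon 18. The percentiles of these 3 peaks ran from 28.8 to 51.0, and the overlapped shares of their deciles of the WT list were 41.4%, 51.5% and 19.7% in the same order. What level the LKO libraries had at the Abcc3 sites is not known, since the LKO table holds values at LKO peaks only.

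Most peaks around Abcc3 were in both lists. Within 100 kb of Abcc3, 7 further WT peaks were assigned to Wfikkn2, Luc7l3 and Ankrd40, and 6 of them were overlapped by an LKO peak. The exception was the Ankrd40 peak inside Abcc3, with a score of 37.9. All 6 LKO peaks of this neighbourhood were overlapped by WT peaks, among them the Luc7l3 promoter peak with a score of 196.3 in WT and 87.2 in LKO. The overlapped neighbours stood at percentiles of 15.7, 32.2, 75.8, 80.9, 83.1 and 98.3 of the WT list. The exception stood at 73.2, and the peaks assigned to Abcc3 ran from 28.8 to 68.7. Overlap rises with strength, and strength was not matched here. This difference between Abcc3 and its neighbours is a description of a single locus. Around the other genes, 3 of 5 neighbouring WT peaks were overlapped by an LKO peak near Slc51a and 2 of 2 near Slc51b. The 2 WT peaks near Abcc4, both assigned to Cldn10, were not overlapped, and no LKO peak of a neighbouring gene lay within 100 kb of Abcc4.

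**Figure D2:**
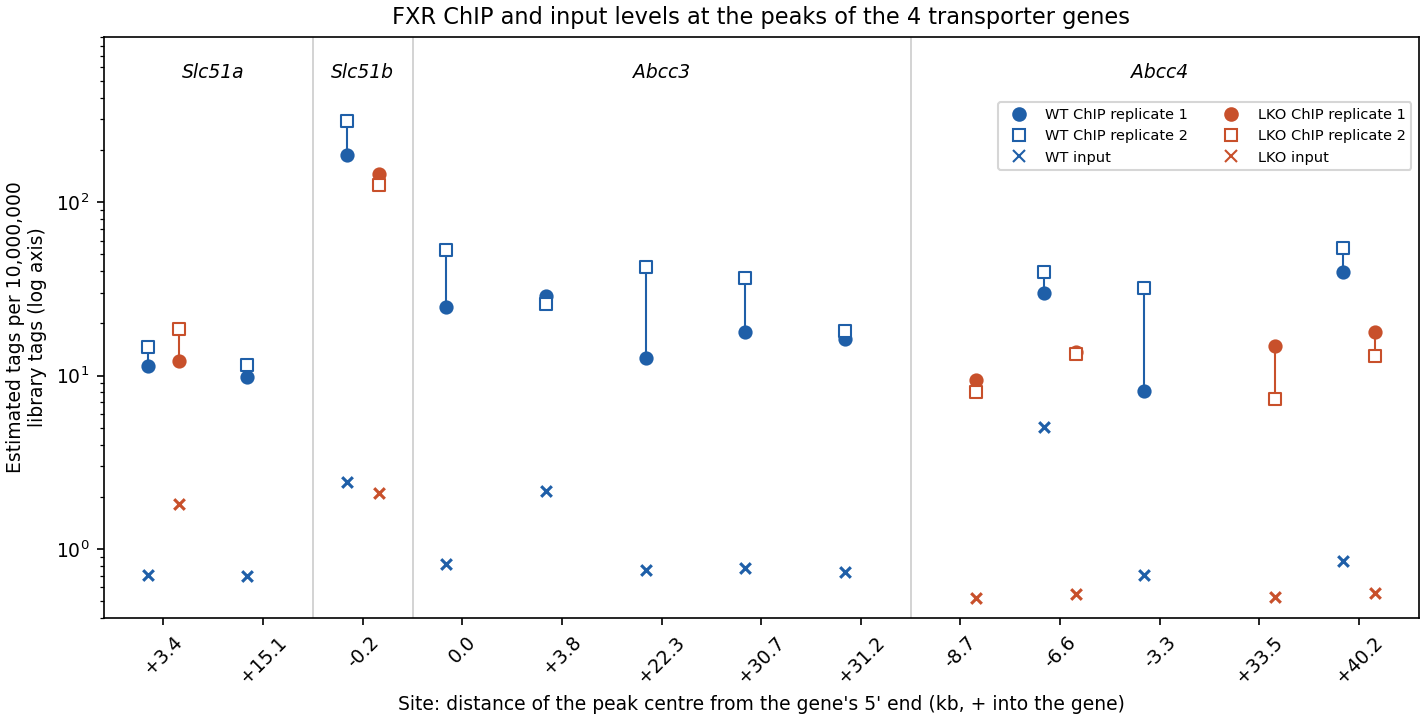
Estimated tags per 10000000 library tags (log axis) in every library at the 13 sites, ordered by distance from the 5′ end of the gene. Circles and squares are ChIP replicates 1 and 2, joined by a line, and crosses are inputs, with WT in blue and LKO in orange; a site has values only for the genotypes in which a peak was called. The Slc51b site has the highest ChIP values in both genotypes. At every site the ChIP values stand above the input of the same genotype, but peaks were kept only where ChIP exceeded input, so nothing is read from this.

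Abcc4 encodes the exporter MRP4, spans chr14:118482692-118707856 and had peaks in both genotypes, 2 of them shared. The strongest was in intron 3 of 30, at chr14:118667515-118667725 in WT, and its score was 43.4 in WT and 15.5 in LKO. This WT peak was centred 40.2 kb from the 5′ end of the gene, but 9311 bp from an internal start used for it in the authors' annotation. Estimated tags were 75.5 and 15.6 in the WT libraries and 37.8 and 29.3 in the LKO libraries. The relative log2 level was 0.24 and 0.17 in WT and -0.13 and -0.39 in LKO. Both LKO libraries lay below both WT libraries, with a difference of -0.47 (pooled SD 0.14), at the 16.4 percentile of all shared peaks. In the same decile of the WT list the median difference was -0.12, and values ran from -0.88 to 0.75 between the 5th and 95th percentiles. The difference at this peak was within that range.

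The second shared Abcc4 peak was intergenic, with a score of 34.2 in WT and 15.3 in LKO. In WT it was centred 8284 bp upstream of the start that the authors' annotation used for this peak. Measured from the 5′ end of the gene, as in the figures, the WT peak lay at -6.65 kb. The relative log2 level of this peak was -0.16 and -0.29 in WT and -0.51 and -0.36 in LKO. The LKO libraries were again both below the WT libraries, by 0.21 in the mean (pooled SD 0.10), at the 32.7 percentile of all shared peaks. Shared peaks of the same decile had a median difference of -0.06, with values from -0.79 to 0.81 between the 5th and 95th percentiles, a range that holds this peak. The WT input value at this site was 2.28 on the deposited log2 scale, above the 95th percentile of input over the WT list (1.85), and corresponded to 3.51 estimated tags. It was the highest input estimate among the peaks of the 4 genes. On the library-total scale the differences were -1.61 in the intron and -1.35 upstream.

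The remaining Abcc4 peaks were found in 1 genotype only and were weak. The WT-only peak, intergenic in an ORR1F LTR repeat at chr14:118711009-118711219, had a score of 13.2 and an estimated 15.5 and 9.28 tags. Its libraries were far apart, at 8.13 and 32.2 per 10000000, the widest spread among the WT peaks of these genes. An LKO-only peak at chr14:118674214-118674418, in an L2 LINE repeat in an intron, had a score of 11.2 with 31.5 and 16.6 estimated tags. The other, at chr14:118716475-118716679, had a score of 8.88, the lowest in the LKO list, with 20.1 and 18.3 estimated tags. These LKO-only peaks stood at the 21.5 and 9.10 percentiles of the LKO list, and their nearest WT peaks were 6696 and 2074 bp away.

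Over the shared peaks, 2 of the 4 had both LKO libraries above both WT libraries on the relative scale (Slc51a and Slc51b) and 2 had both below (Abcc4). Over all 9918 shared peaks, 29.8% lay above and 25.2% lay below in this sense. The median difference was 0.074 over the 4 peaks and 0.026 over all shared peaks, whose SD was 0.60. This median rests on the scale, since it was -0.40 when centred on all peaks of each list, -0.26 without centring and -1.07 on the library-total scale, and leaving out LKO replicate 2 took it to 0.037. Each of the 4 differences was larger than the pooled SD of its replicates, as were 63.2% of all shared differences, and nothing is read from this count. The regularized values of a table pull its libraries together, which makes this SD small.

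**Figure D3:**
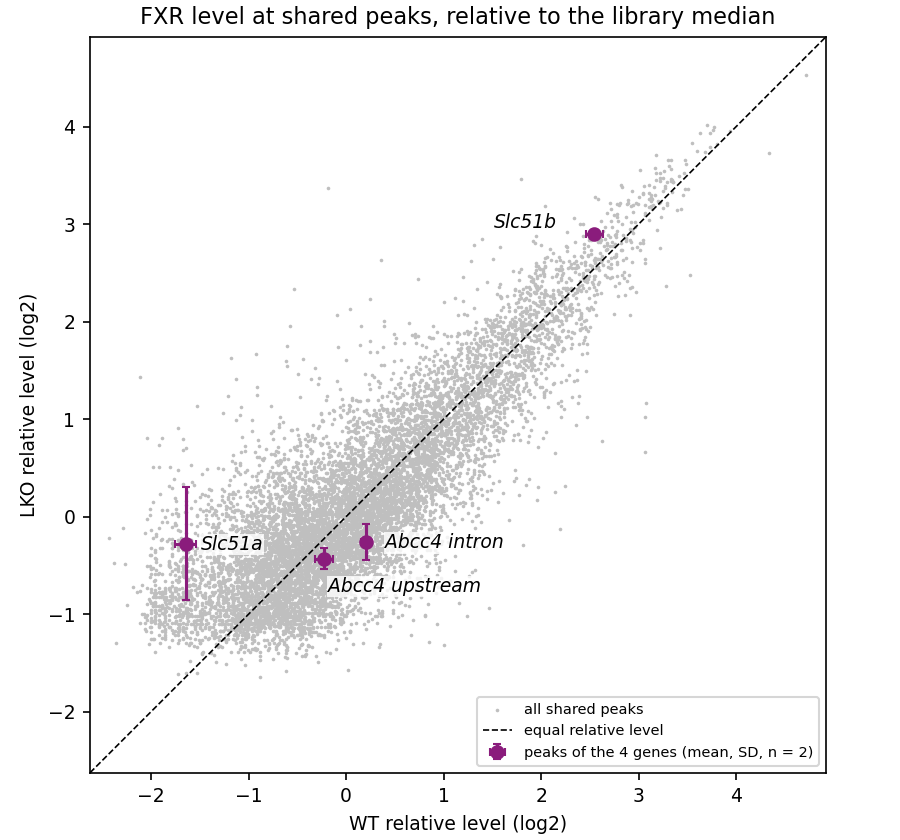
Relative log2 level of the 9918 shared peaks in LKO (vertical axis) against WT (horizontal axis), after subtraction of each library's own median over these peaks. Purple points are the 4 peaks of the transporter genes with the mean and SD of 2 libraries, grey points are the other shared peaks, and the dashed line marks equal levels. Slc51a and Slc51b lie above the line and both Abcc4 peaks below it, and the weak WT peaks around Slc51a lie mostly above the line.

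The peaks found in WT only were spread over the weaker and middle part of the list. The 7 WT-only peaks had percentiles of 4.85 to 68.7, with a median of 45, and the 4 shared peaks 14.8 to 98.9, with a median of 71.9. In LKO the 2 unshared peaks were below the 4 shared ones in strength, the latter running from 39.2 to 99.0. In LKO, 1 of the 6 peaks, that of Slc51b, was at or above the median strength of its list (Wilson interval 3.01 to 56.4%). In WT, 6 of the 11 were at or above the median of the WT list (28.0 to 78.7%). A median splits its list evenly by definition, and both intervals, which cover counting error only, include an even split. The medians are those of different lists, so these counts do not compare binding strength between genotypes.

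**Figure D4:**
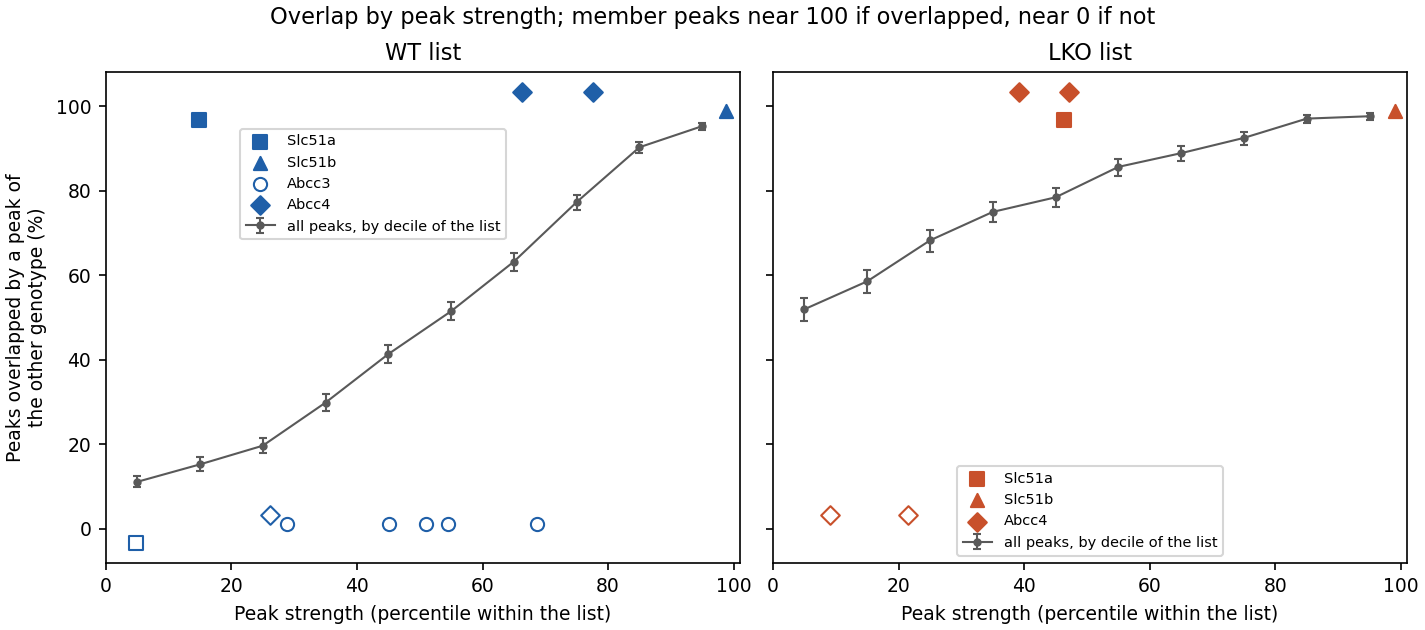
Share of peaks overlapped by a peak of the other genotype (%) in each decile of the list by strength, with 95% Wilson intervals, for WT (left) and LKO (right). Coloured symbols are the peaks of the 4 genes at their own percentile, filled and set near 100 where overlapped and open and set near 0 where not, with a small vertical offset by gene. The share climbs from 11.2% to 95.3% over the deciles of the WT list, and the 5 Abcc3 peaks lie near 0 at percentiles from 28.8 to 68.7.

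The peaks were searched for the FXR motif. An IR1 differing at no more than 2 of the 12 scored letters, on either strand and up to 100 bp from the peak centre, was found in 1 of 11 WT peaks and 0 of 6 LKO peaks, against 11.9% of all WT and 16.3% of all LKO peaks. With so few peaks, these counts are near the shares of the whole lists. Windows 2 kb away held the motif in 0.973% and 0.896%. The match was the element past the end of Slc51a, 4 bp from the centre of that weak WT peak. At the Slc51b promoter, the element in capitals at chr9:65422948-65422960 was centred on the WT peak, and an exact half-site lay 20 bp from the centre. This element had 3 mismatches to the letters searched, a limit at which 36.5% of all WT peaks also had a match, so the strongest peak of the group was not among the strict matches. Accepting A or G as the first base and C or T as the last, a choice made after seeing the data, added the Slc51b peak, for 2 of 11 WT peaks and 1 of 6 LKO peaks, against 23.0% and 30.4% of all peaks.

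Other searched sequences gave similar descriptions. The exact half-site, in either direction, lay within 100 bp of the centre in 4 of the 11 WT peaks (40.6% of all WT peaks). It did so in 3 of the 6 LKO peaks (41.7% of all LKO peaks), at Slc51b and Abcc4 only. The half-site in the Abcc4 intron peak lay 79 bp from the WT centre and outside the overlapping LKO peak. A direct repeat of the half-site with a 1-base spacer (DR1, at most 2 mismatches), which may overlap the other sequences searched, was found in 1 WT peak, the WT-only peak upstream of Abcc4, and in none in LKO, against 13.2% and 12.2% of all peaks. The core shared by BCL6 and STAT sites, TTCNNNGAA, was found in none of the 11 WT or 6 LKO peaks, against 6.84% and 6.55% of all peaks. Windows 2 kb away held the core in 6.34% and 6.50%, close to the shares at peaks, so its absence from so few peaks says little. For the half-site these windows gave 13.5% and 13.7%, and for DR1 3.47% and 3.46%. No searched sequence was found in the Slc51a intron peak or the Abcc3 promoter peak within this window, which says only that these letters were absent there.

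The basolateral efflux genes were set beside a mixed list of 16 other transporter and binding-protein genes linked to bile acids or bile lipids. They were Slc10a1, Slc10a2, Slco1a1, Slco1a4, Slco1b2, Slco2b1, Abcb11, Abcb4, Abcb1a, Abcc2, Abcg2, Abcg5, Abcg8, Fabp1, Fabp6 and Atp8b1. Not all of their products carry bile acids. Of the 16 genes, 13 had a WT peak and 12 an LKO peak, 11 of them in both. Of their 58 WT peaks, 28 were overlapped by an LKO peak (48.3%), and of their 34 LKO peaks, 28 by a WT peak (82.4%). Abcg2 and Slco1a1 had WT peaks only, as Abcc3 did, with 1 and 2 peaks. The highest scores among the 16 were at Abcb4, which encodes the canalicular phospholipid transporter, at 185.8 in WT and 140.9 in LKO. By score, the Slc51b promoter peak was above all of them in WT and just under Abcb4 in LKO. By strength the 2 were level, both at the 98.9 percentile in WT with Abcb4 marginally ahead, and at the 99.0 (Slc51b) and 99.1 (Abcb4) percentiles in LKO.

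Among the 8 other genes of the Abcc family, 5 had a WT peak and 5 an LKO peak, with 4 in both. Their 12 WT peaks included 5 overlapped by an LKO peak (41.7%), and their 9 LKO peaks included 5 overlapped by a WT peak (55.6%). Abcc2, which encodes the canalicular exporter MRP2 and is also in the list of 16 genes, had 6 WT and 3 LKO peaks, with top scores of 85.8 and 36.9. Abcc6 had 1 peak in WT only and Abcc9 had 1 in LKO only. None of these genes had 5 peaks in one genotype and none in the other, but only Abcc2, with 6 in WT, had enough peaks to show this.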

How the data were processed

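FXR ChIP-seq libraries of WT and LKO liver (2 each, with 1 input per genotype) were aligned to mm10 by the authors with Bowtie 1.2 and processed with HOMER 4.10, per the labels. Peaks were called on the pooled replicates against input in factor style and kept by the authors' DESeq2 run at an adjusted p under 0.05 and a log2 fold over 1. The DESeq2 version is not given in the sources used here. Each deposited table gives log2 values (regularized, scaled to library totals) of its 3 libraries, a peak score, which is the signal of the pooled ChIP tags per 10000000, and a focus ratio, the fraction of tags near the centre in the authors' definition. The deposited fold changes and p-values compare ChIP with input and were not used.

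Peaks were taken by the authors' gene name. Estimated tags were 2 to the power of the log2 value, multiplied by the library total and divided by the mean total of the table. The library-total scale, chosen after seeing the data, scaled these to 10000000. Relative levels are log2 values minus the library's median over the 9918 shared peaks. All 20040 WT and 12495 LKO peaks lay inside the GRCm38.p6 chromosomes, from which sequence was read. Every peak of the 4 genes was described. Peaks of the 16 transporter and binding-protein genes, 8 Abcc genes and neighbours within 100 kb were counted, with a few named. These members and lists were chosen with earlier results of these data known. Scripts were tested on simulated data and run with pandas 2.3.3, pysam 0.24.0, scipy 1.17.1, numpy 2.4.6 and matplotlib 3.10.9 under Python 3.11.15. Alternatives covered peak strength, tag minimum, input, overlap rule, centring, single libraries and motif letters.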

Additional observations from a re-analysis of the deposited data

How the results depend on the processing

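Of 36 alternative values of the main results, 21 stayed within the stated limits (counts within 1.5 times, shares within the Wilson interval, levels within the pooled SD of 0.11 over library medians). Keeping peaks at or above the median strength left 6 WT and 1 LKO peaks of the 4 genes, and the LKO share overlapped became 100% of that 1 peak. At least 10 estimated tags in both ChIP libraries left 6 WT peaks, and this limit falls mainly on the shallow WT replicate 2. Taking all peaks within 50 kb of a gene start gave 17 WT and 12 LKO peaks, including those of neighbouring genes. An IR1 limit of 1 mismatch gave 0 WT peaks, 3 mismatches gave 3 WT and 1 LKO peaks, and the relaxed end letters, added after seeing the data, gave 2 and 1. The median difference over the 4 shared peaks, 0.074, changed sign when centred on all peaks of the list (-0.40), without centring (-0.26), as percentile rank (-13.5 percentage points) and on the library-total scale, added after seeing the data (-1.07). Leaving out single libraries gave 0.037 to 0.11. Of the single peaks, Slc51b also changed sign, to -0.12 when centred on all peaks and -0.79 on the library-total scale, while Slc51a (0.96 to 1.77 without single libraries) and both Abcc4 peaks kept their direction under each alternative run. The cause of these changes was not tested. No paired analysis was possible because the level differences are descriptions that come from no test, the tables having been normalized separately, so there was no fit to which a replicate block could be added. Depth limits WT most, where 5 of the 11 peaks held under 10 estimated tags in replicate 2.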
